A study of Caenorhabditis elegans with 4 samples.

Results

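REC-8 peaks on chromosome II of Caenorhabditis elegans are the 963 peaks called on that chromosome, of 5889 on the 6 nuclear chromosomes. They come from the peak list that the authors made for the whole study, and whether each is a binding site was not tested. Every peak listed on that chromosome was taken, whatever its score or width. The study immunoprecipitated REC-8 with an affinity-purified rabbit polyclonal antibody (SDQ3914, 5 µg) from extract of whole adult worms and sequenced the recovered DNA (ChIP-seq). It holds 2 REC-8 ChIP libraries and 2 libraries of input, which is sheared DNA with no immunoprecipitation. All 4 libraries came from fem-2(b245) hermaphrodites at 20 degrees Celsius, labelled as young adults with a germline but as gravid adults in the growth protocol, and no library of another genotype or without REC-8 was analysed here. The peak list of each ChIP replicate was set beside the combined list, with 317 peaks on chromosome II in replicate 1 and 327 in replicate 2.

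REC-8 is a kleisin, the subunit that closes the ring of the cohesin complex, and it is used in meiosis, where cohesin holds sister chromatids together and forms part of the axis on which homologous chromosomes pair and recombine. The worm has related meiotic kleisins, COH-3 and COH-4. Worm chromosomes are holocentric, meaning that spindle attachment is spread along them and not held at 1 centromere. Their autosomes have a central part that is rich in genes and poor in crossovers, and 2 arms in which crossovers and repeats are more common. The fem-2 gene encodes a phosphatase that promotes male development, and b245 is a temperature-sensitive allele of it. The extract was made from whole worms, so a weak peak from few nuclei and one from little REC-8 in every nucleus cannot be told apart. The bases under the peaks and the genes near them were not analysed here.

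Chromosome II extended to 15.3 Mb (WS220), taken as the largest peak end. Its left arm was the part below 4.88 Mb and its right arm the part above 12.02 Mb, with each peak placed by its midpoint. The combined list held 233 peaks in the left arm, 224 in the right arm and 506 in the centre. These numbers correspond to 47.7, 68.7 and 70.9 peaks per Mb. In this list the left arm was the sparse part, and the right arm came close to the centre. Both replicates had the right arm denser than the centre, with log2 ratios of 0.40 in replicate 1 and 0.20 in replicate 2 (mean 0.30 ± 0.14, SD, n = 2). For the left arm against the centre the ratios were -0.02 and -0.33, a mean of -0.17 ± 0.22 that is smaller than its spread.

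The left arm was sparser than the right arm in all 3 lists. Replicate 1 had 19.3 peaks per Mb in the left arm and 25.8 in the right arm, and replicate 2 had 17.6 and 25.5. The log2 ratio of left to right was -0.42 for replicate 1 and -0.53 for replicate 2, as for the combined list (-0.53), with a replicate mean of -0.48 ± 0.08 (SD, n = 2). In DNA covered, peaks of the combined list took up 2.20% of the left arm and 3.33% of the right arm, a log2 ratio of -0.60. No test over samples was made, since 2 lists are too few for an exact test to pass a usual threshold, and every comparison here is a description, with the spread between replicates beside it where there is one.

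Between both arms together and the centre, peak numbers did not share a direction across the lists, while DNA covered did. The combined list had 56.1 peaks per Mb in the arms and 70.9 in the centre, a log2 ratio of -0.34. Replicate 1 had 21.9 in the arms and 19.5 in the centre, a ratio of 0.17, and replicate 2 had 20.8 and 22.1, a ratio of -0.09. The replicate mean of 0.04 ± 0.18 (SD, n = 2) was smaller than its spread. Measured as DNA covered, the ratio was -0.16 for the combined list, against -0.13 for replicate 1 and -0.09 for replicate 2. The replicate mean was -0.11 ± 0.03 (SD, n = 2). Both arms together thus had slightly less DNA under peaks than the centre in all 3 lists. Taken alone, the left arm was below the centre in DNA covered, at -0.43 (combined), -0.30 (replicate 1) and -0.36 (replicate 2). The right arm was above the centre in all 3 lists, at 0.16, 0.09 and 0.24 in the same order.

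**Figure D1:**
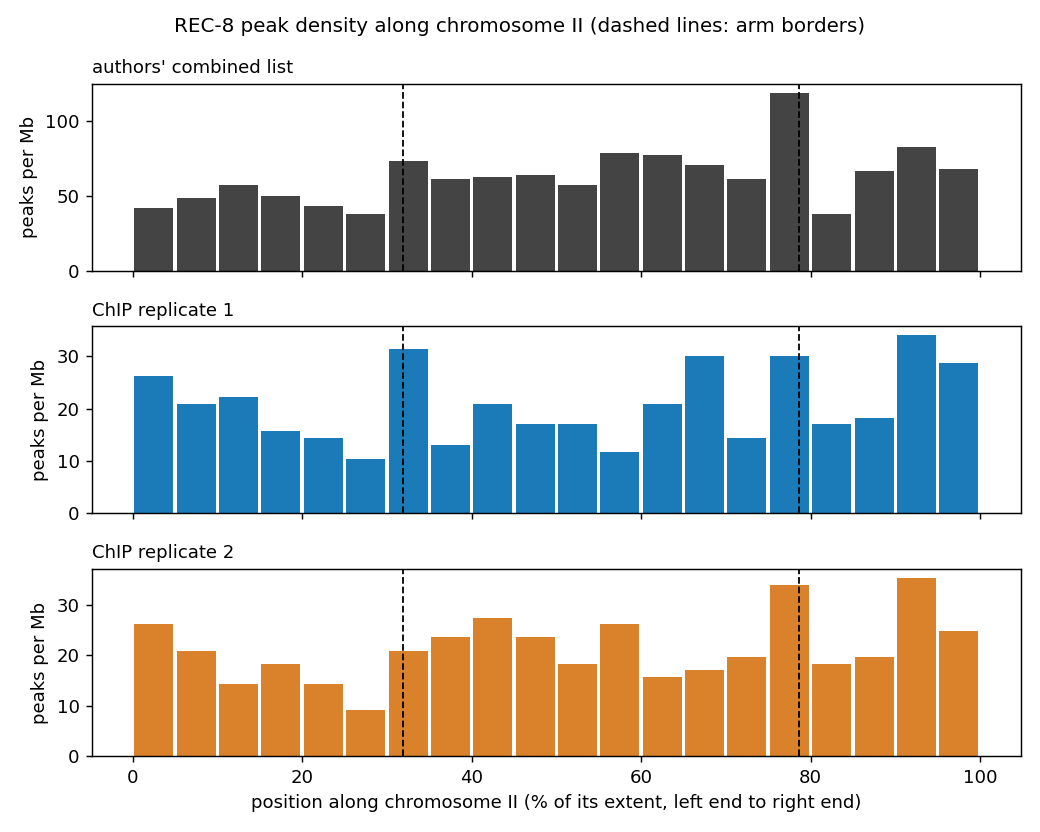
Peaks per Mb in 20 equal parts of chromosome II, for the authors' combined list and each ChIP replicate, with dashed lines at the arm borders. In all 3 lists the innermost part wholly in the left arm (25 to 30% of the extent) was the lowest. It held 29 combined, 8 replicate 1 and 7 replicate 2 peaks. In the combined list it was level with the innermost part wholly in the right arm (29).

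Cut into 20 equal parts, the chromosome held a median of 47.5 combined peaks per part, with 29 in the lowest and 91 in the highest. The part from 3.82 to 4.58 Mb, the innermost that lay wholly in the left arm, was the lowest in all 3 lists. It stopped short of the border at 4.88 Mb. In the combined list it was level with the part from 12.2 to 12.99 Mb. The part from 11.5 to 12.2 Mb, across the right border, was the highest in the combined list, with 91 peaks, and it held 23 peaks in replicate 1 and 26 in replicate 2. Its neighbour on the right, inside the right arm, held 29 combined, 13 replicate 1 and 14 replicate 2 peaks, so the densest and the sparsest parts of the combined list were side by side. The replicates had their highest number, 26 and 27 peaks, in the part from 13.8 to 14.5 Mb in the right arm. Across the 20 parts the replicates had a Spearman rho of 0.37, a description over parts of 1 chromosome and not over samples.

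The low density of both arms together in the combined list lay among its weakly scored peaks. Each peak carries a score from the authors' peak caller, on a scale that is not given, so scores are used here to order peaks within a list, and their levels are not compared between lists. Of the 4 equal groups by score, the lowest (1.31 to 4.78) had 11.5 peaks per Mb in the arms and 20.6 in the centre, a log2 ratio of -0.83. The ratio was -0.59 in the second group and -0.24 in the third. In the highest group (21.93 to 161.64) it was 0.31, with 17.3 peaks per Mb in the arms and 14.0 in the centre. Taken apart in that group, the left arm was near the centre, at 14.8 per Mb, and the right arm above it, at 21.2. The left arm stayed sparser than the right arm in all 4 groups, with log2 ratios between -0.75 and -0.29. In replicate 1 the higher-scored and lower-scored 50% of peaks had similar arm to centre ratios, 0.19 and 0.14, and in replicate 2 they were 0.06 and -0.24.

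**Figure D2:**
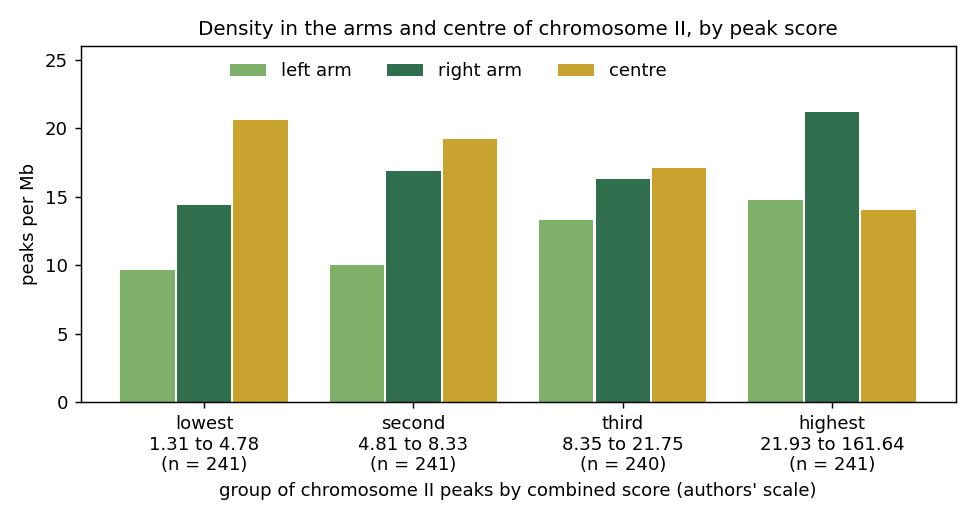
Peaks per Mb of the combined list in the left arm, right arm and centre of chromosome II, for 4 equal groups by combined score. The centre was densest among the lowest-scored peaks (20.6 per Mb), and the right arm among the highest-scored (21.2 per Mb).

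Combined scores themselves were higher in the arms. The median combined score was 10.17 in the left arm and 9.47 in the right arm, against 6.90 in the centre and 8.33 over the chromosome. Replicate 2 had the same order, with medians of 267 in the left arm, 227 in the right arm and 201 in the centre. Replicate 1 did not, with 172, 148 and 162.

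The peaks of the combined list were narrow, with a median width of 297 bp and quartiles of 206.5 and 473 bp. The median was 299 bp in the left arm, 305 bp in the right arm and 292 bp in the centre. Of the 963 peaks, 70 (7.27%) were 1 kb or wider, with 22 in the left arm, 17 in the right arm and 31 in the centre. Replicate 1 peaks had a median of 423 bp, and replicate 2 peaks had 1422 bp, with 324 of 327 at 1 kb or wider. Wider peaks scored higher, with a Spearman rho of 0.63 over the combined peaks, 0.82 in replicate 1 and 0.62 in replicate 2. A width depends on how a caller joins signal, and the lists share no stated settings, so the part that settings have in width differences between lists cannot be told apart from the rest.

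Overlap with the replicate lists asked which of the 963 peaks were also called in a single immunoprecipitation. A replicate 1 peak overlapped 267 of them by at least 1 bp (27.7%), where the share over all nuclear peaks was 28.9%. A replicate 2 peak overlapped 480 (49.8%), beside 50.9% over all nuclear peaks. Both replicates had a peak at 217 (22.5%, 95% Wilson interval 20.0 to 25.3%, counting error only), beside 23.1% of all nuclear peaks. Neither had one at 433 (45.0%, interval 41.8 to 48.1%), beside 43.3%. All 4 shares lay within 2 percentage points of those over the whole list. A further 50 peaks had an overlap in replicate 1 alone and 263 in replicate 2 alone. Since the combined list and the replicate lists belong to a single study, overlap with a replicate is not independent evidence for a peak. Scores on chromosome II began at 50.14 in replicate 1 and 50.03 in replicate 2, and at 1.31 in the combined list. The scales are not given, so how far the lists were cut at unlike levels cannot be told. A peak in neither list was thus not called there, and was not shown to lack signal.

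Peaks outside both replicate lists were most common in the centre. They made up 99 of 233 peaks in the left arm (42.5%), 86 of 224 in the right arm (38.4%) and 248 of 506 in the centre (49.0%), which is 20.3, 26.4 and 34.7 per Mb. Peaks in both replicates were spread more evenly, at 12.5 per Mb in the left arm, 16.3 in the right arm and 14.4 in the centre. The median score was 50.3 for peaks in both and 5.60 for peaks in neither, and the median widths were 658 and 222 bp.

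Score and width marked the shared peaks. Of the highest-scored group, 172 of 241 peaks (71.4%) were in both replicates and 9 (3.73%) in neither. Of the lowest-scored group, 4 of 241 (1.66%) were in both and 164 (68.0%) in neither. Among the 70 peaks of 1 kb or wider, 59 (84.3%) were in both and 0 in neither, whereas 276 of the 366 peaks under 250 bp (75.4%) were in neither. A wide peak has more room to overlap another, and how much of the pattern that gives was not tested.

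**Figure D3:**
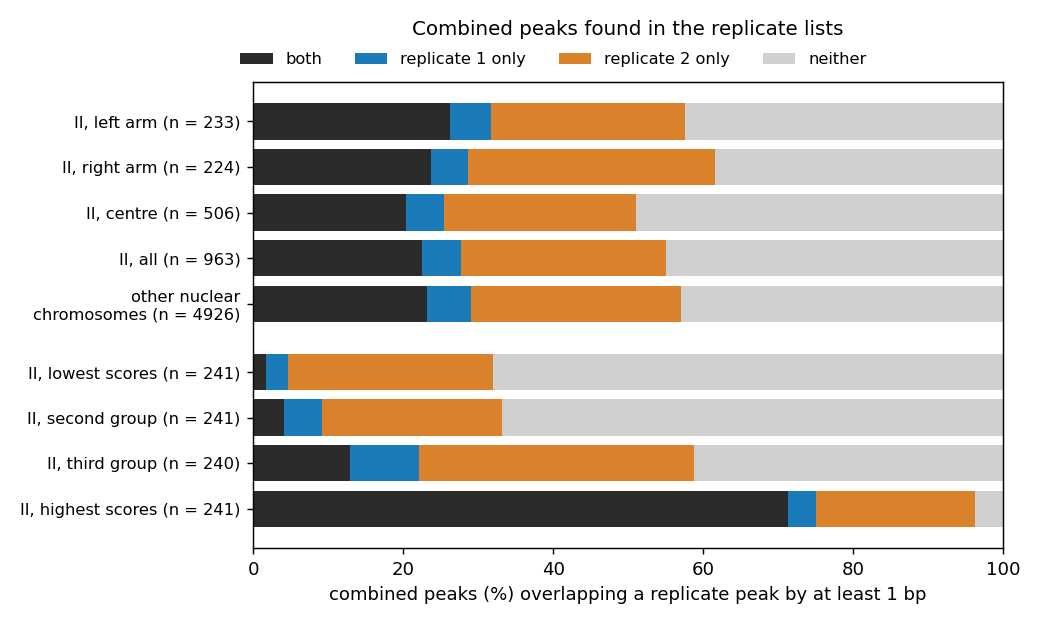
Share of combined peaks that overlapped a peak of both replicates, of replicate 1 only, of replicate 2 only or of neither, for parts of chromosome II, the other nuclear chromosomes and 4 score groups on chromosome II. Chromosome II as a whole (22.5% in both, 45.0% in neither) lay near the other nuclear chromosomes (23.2% and 43.0%), and the score groups ran between 1.66% and 71.4% in both.

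Set directly against each other, the replicates shared most replicate 1 peaks. Of the 317 replicate 1 peaks on chromosome II, 262 (82.6%, Wilson interval 78.1 to 86.4%) overlapped a replicate 2 peak, beside 80.5% on the other nuclear chromosomes. Of the 327 replicate 2 peaks, 184 (56.3%, interval 50.9 to 61.5%) overlapped one in replicate 1, beside 59.2% elsewhere. Among the 184, 45 overlapped 2 or more replicate 1 peaks. When midpoints had to lie within 500 bp, the shares were closer, at 57.7% for replicate 1 and 52.0% for replicate 2. The share of replicate 1 peaks was much alike in the 3 parts, at 83.0% in the left arm, 84.5% in the right arm and 81.3% in the centre. It was 62.5% in the lowest and 97.5% in the highest of 4 score groups. For replicate 2 it was 23.2% in the lowest group and 96.3% in the highest. The combined list held 309 of the 317 replicate 1 peaks, and the 8 that it lacked scored between 51.8 and 205 in replicate 1. It held all 327 replicate 2 peaks, of which 108 spanned 2 or more combined peaks.

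A set of 139 places paired 1 to 1 between the replicates. The median distance between midpoints was 46.5 bp, and at 138 of these places the replicate 1 peak sat wholly inside the replicate 2 peak. The median width was 462 bp in replicate 1 and 1378 bp in replicate 2, and replicate 2 was the wider at all 139. Scores had a Spearman rho of 0.69 over the pairs, and 0.65 over the 134 pairs in which both lay below 3100, a value at which scores were tied (5 peaks in replicate 1 and 11 in replicate 2 on chromosome II). The pairs are places on 1 chromosome and not replicates.

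**Figure D4:**
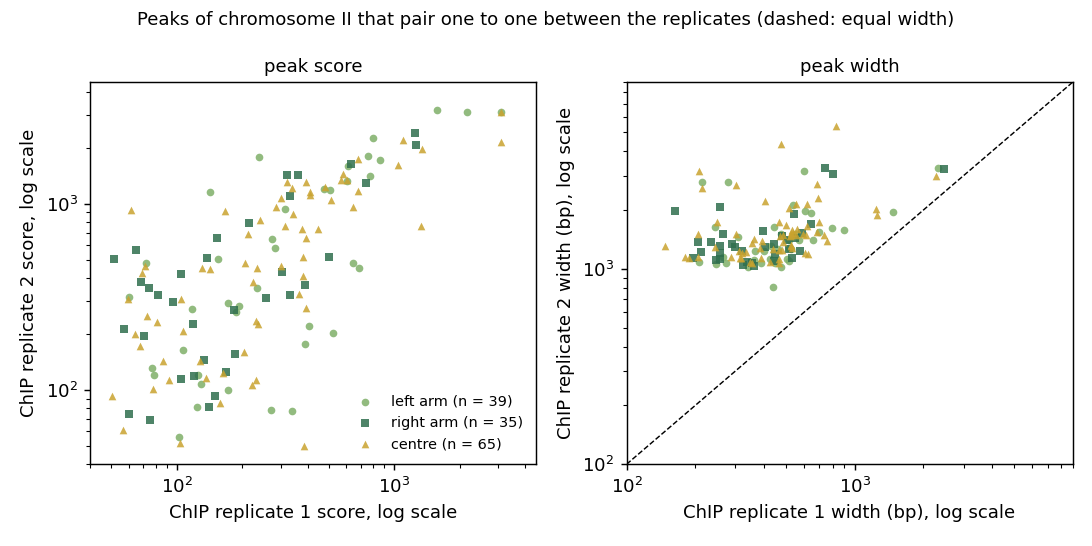
Score (left) and width (right) of the 139 places on chromosome II that paired 1 to 1, in ChIP replicate 2 against ChIP replicate 1, on log axes, with a dashed line at equal width. All 139 widths lie above the line, and places that scored high in 1 replicate tended to score high in the other (Spearman rho 0.69).

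High-scored peaks were found in each part of the chromosome. The 8 highest-scored peaks in both replicates had combined scores between 155 and 162, so their order means little. In the left arm they included chrII:4553914-4555907, which was 1994 bp wide with a combined score of 161.64. It scored 3100 in both replicates and covered 2 replicate 1 peaks. Further out in that arm, chrII:2378260-2379074 (815 bp, combined score 159.53) also scored 3100 in both. The peak at chrII:4851470-4852234 (765 bp, 161.64) scored 861 in replicate 1 and 1713 in replicate 2. It lay inside the arm, just short of the border, in a run of 6 peaks.

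In the centre, the peak at chrII:11345341-11346046 (706 bp, combined score 159.81) scored 572 in replicate 1, the lowest of the 8, and 1344 in replicate 2. Also in the centre, chrII:7151529-7152441 (913 bp, 156.87) scored 1348 in replicate 1 and 1976 in replicate 2. The right arm held the other 3. Of these, chrII:14251181-14252123 (943 bp, 156.29) scored 1262 in replicate 1 and 2063 in replicate 2. For chrII:13156767-13157379 (613 bp, 156.29) the scores were 738 and 1301, and for chrII:14059629-14060367 (739 bp, 155.39) they were 635 and 1637. All 8 scored above the median of their list in both replicates, 164 in replicate 1 and 225 in replicate 2. They were picked by combined score among peaks in both replicates, so this is no separate support for them.

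The widest peaks were a different set, with combined scores between 33.2 and 124, and all 8 overlapped both replicates. The widest, at chrII:13428910-13434098 in the right arm, spanned 5189 bp with a combined score of 40.46. It was 1 peak of 6605 bp in replicate 2, with a score of 2782, while replicate 1 had 2 small peaks there with a top score of 172. The next, chrII:8288330-8292699 in the centre (4370 bp, combined score 34.6), was 1 peak in each replicate, 4504 bp wide in replicate 1 and 6069 bp in replicate 2. The domain at chrII:8744119-8747825 (3707 bp, 56.71) was likewise 1 peak in each, with scores of 2774 in replicate 1 and 1798 in replicate 2.

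Other wide domains were broken up in replicate 1. The peak at chrII:693642-697507 in the left arm (3866 bp, combined score 94.12) matched 4 replicate 1 peaks and a single replicate 2 peak of 6164 bp that scored 3100. Near the right end, chrII:15137927-15141674 (3748 bp, 123.87), also matched 4 in replicate 1, with a top score of 871, and 1 in replicate 2 at 3100. With 2 replicate 1 peaks, chrII:12052883-12056134 (3252 bp, 33.17) lay just inside the right arm in a run of 9. The remaining pair, chrII:6888177-6891346 (3170 bp) in the centre and chrII:14991149-14994208 (3060 bp) in the right arm, each matched 3 replicate 1 peaks and 1 replicate 2 peak. The largest number of replicate 1 peaks under 1 combined peak was 5, at chrII:12649367-12651571 (2205 bp, 53.38), which was 1 peak of 3921 bp in replicate 2. The left-arm peak at chrII:1983563-1986182 (2620 bp, 59.41) covered 4, with a top score of 375, and 1 replicate 2 peak that scored 2194.

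Some peaks in neither replicate list had fairly high combined scores. The highest was chrII:2649046-2649320 (275 bp, combined score 36.73), followed by chrII:15010377-15010623 (247 bp, 27.97) and chrII:1819977-1820235 (259 bp, 26.31). All lay in the arms, and each was narrower than the median peak.

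Neighbouring midpoints of the combined list were a median of 6.71 kb apart, with quartiles of 1.45 and 22.8 kb. The median was 10.8 kb in the left arm, 5.53 kb in the right arm and 5.67 kb in the centre. Of 962 neighbours, 429 (44.6%) lay within 5 kb and 160 (16.6%) within 1 kb. Replicate 1 had a median of 19.2 kb, with 37.7% within 5 kb, and replicate 2 had 31.8 kb, with 13.5%. No replicate 2 midpoints lay within 1 kb of each other, in a list where 324 of 327 peaks were at least that wide.

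Chaining combined peaks over gaps of up to 5 kb gave 523 runs, of which 319 were single peaks. Another 178 runs had 2 to 4 peaks, 20 had 5 to 9 and 6 had 10 or more. Median scores were 10.55 for single peaks, 8.55 in runs of 2 to 4, 6.66 in runs of 5 to 9 and 5.18 in the longest runs. Of the single peaks, 56.7% were in neither replicate, against 35.6% of peaks in runs of 5 or more. That difference lay in replicate 2, which overlapped 39.2% of single peaks and 58.5% of those in the longer runs. For replicate 1 the shares were 26.6% and 27.3%, and for both replicates 22.6% and 21.5%. A wide replicate 2 peak can span several neighbouring combined peaks, and how much of the difference that gives was not tested. The number of runs with 10 or more peaks was 6 on chromosome II, against 2 each on I, III, IV and V and 0 on X. The longest single runs were elsewhere, with 52 peaks on III and 23 on V, against 21 on II, 16 on I, 12 on IV and 8 on X. No test was made of these differences.

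The longest run on chromosome II lay in the centre at chrII:9807989-9824324, a stretch of 16.3 kb near 9.81 Mb with 21 peaks. None of the 21 overlapped a peak of either replicate. The replicate lists began at scores of 50.14 and 50.03 on this chromosome, so weaker replicate signal there may be unlisted. Combined scores of the 21 were all low, between 2.35 and 6.82 with a median of 4.54. All 21 were below the chromosome's median of 8.33. Widths ran from 147 to 868 bp with a median of 309 bp, and the peaks covered 46.0% of the stretch. Gaps between them had a median of 357 bp, with 51 bp as the shortest and 1539 bp as the longest. The first peak, chrII:9807989-9808362, had the lowest score (2.35), and the last was chrII:9823988-9824324 (4.54). The widest was chrII:9813296-9814163 (868 bp, 4.03), and the highest-scored was chrII:9822255-9822583 (329 bp, 6.82).

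The run stood alone. The nearest combined peaks were 61.6 kb to its left (score 46.12) and 67.9 kb to its right (37.45), and replicate 2 had a peak at each of those places, with scores of 238 and 193. The nearest replicate 1 peaks were 89.0 kb and 99.8 kb away. Chaining gaps of 2 kb and of 10 kb gave the same 21 peaks. The 100 kb window from 9800001 bp that holds the run was the densest of 153 on the chromosome, with 22 combined peaks, 0 replicate 1 peaks and 1 replicate 2 peak.

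The next runs differed from it in having replicate peaks. A run of 13 peaks at chrII:14598256-14610865 in the right arm, 12.6 kb long, had a median score of 4.81. It overlapped 1 replicate 1 peak and 2 replicate 2 peaks, and 5 of its 13 peaks were in neither list. A run of 12 at chrII:10541937-10563606 in the centre, 21.7 kb long, overlapped 14 replicate 1 peaks with a top score of 950 and 2 replicate 2 peaks with a top score of 819. Its own highest score was 80.8. A run of 11 at chrII:11960683-11980368, 19.7 kb long and just inside the centre, overlapped 2 replicate 1 and 4 replicate 2 peaks, and its highest score was 80.2.

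**Figure D5:**
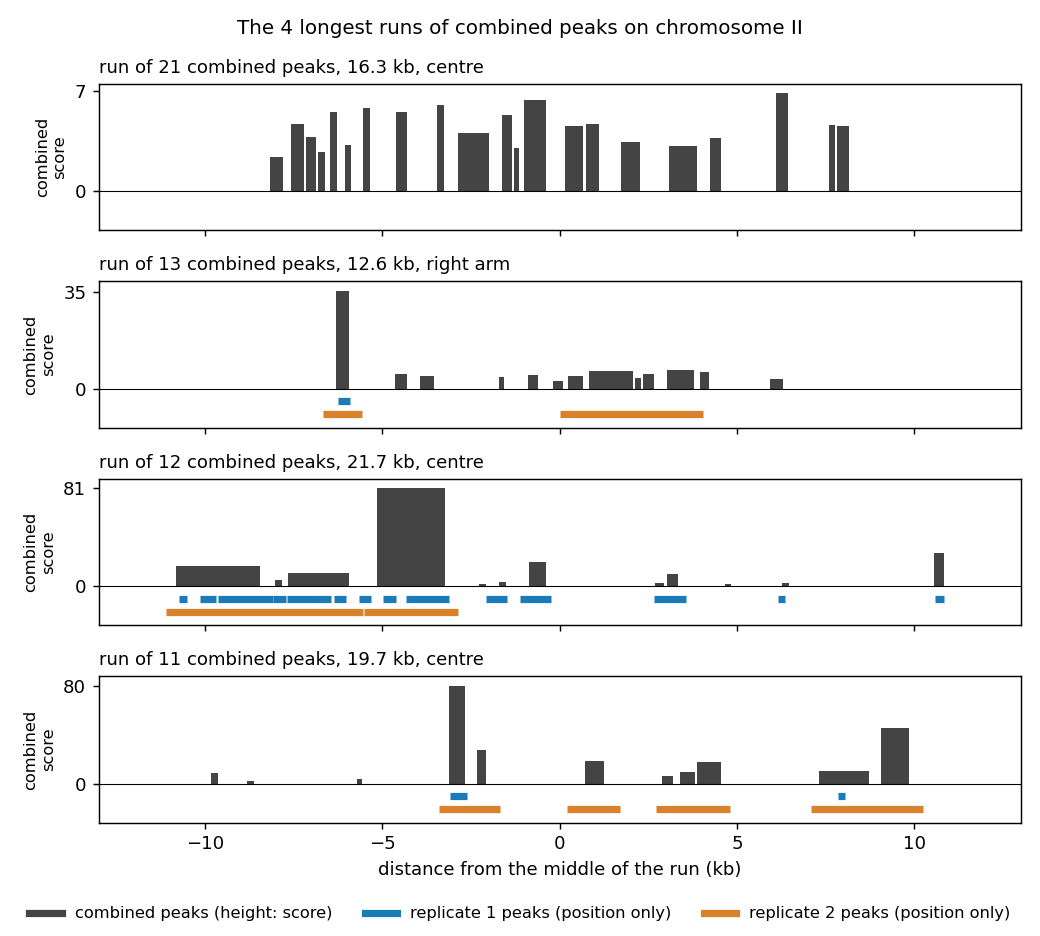
The 4 longest runs of combined peaks on chromosome II, against distance from the middle of each run in kb. Grey bars give combined peaks with their score as height, and coloured bars under the line give replicate peaks by position only. The run of 21 has no replicate peak and no score above 6.82.

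After the window at 9800001 bp, the densest were those from 5300001 and 12000001 bp, with 19 combined peaks each. They held 11 and 8 replicate 1 peaks, and 7 and 5 replicate 2 peaks. Only 2 of the 153 windows had no combined peak, while 40 had none in replicate 1 and 20 none in replicate 2.

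The longest stretches without a combined peak were 163 kb at chrII:2387606-2550408 in the left arm, 141 kb at chrII:6056313-6196898 and 124 kb at chrII:6597799-6721633, both in the centre. No replicate peak had its midpoint in any of them. The longest stretch without a replicate 1 peak was much longer, 547 kb at chrII:12102797-12649398, at the inner end of the right arm. It held the midpoints of 20 combined peaks and of 8 replicate 2 peaks, with a top replicate 2 score of 880. The longest in replicate 2 was 354 kb at chrII:1458416-1812872 in the left arm, with 11 combined and 3 replicate 1 peaks, of which the highest scored 214. A stretch of 269 kb without a replicate 2 peak, chrII:12189748-12459093, lay wholly inside the long replicate 1 gap and held 3 combined peaks.

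At the left end, the first peak began at 1 bp in the combined list (391 bp wide, score 36.25) and in replicate 1 (440 bp, 522), and at 2 bp in replicate 2 (812 bp, 204). At the right end the last replicate peaks stopped at 15142917 bp in replicate 1 and 15143324 bp in replicate 2. The combined list went on for 136 kb past the second of these, with 5 more peaks of low score, 2.98 to 13.42, the last ending at 15279367 bp.

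Against the rest of the genome, chromosome II lay in the middle of the range of densities. It carried 63.0 combined peaks per Mb, against 58.0 on the other 5 nuclear chromosomes together, a log2 ratio of 0.12. The ratio was 0.10 in replicate 1 (20.7 against 19.3 per Mb) and 0.10 in replicate 2 (21.4 against 20.0 per Mb). Counted from the densest, it was number 3 of 6 in the combined list and in replicate 2, and number 4 in replicate 1. Its median combined width of 297 bp lay between the 289 bp of chromosome III and the 301.5 bp of chromosome I, the ends of the range over the others.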

How the data were processed

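REC-8 ChIP-seq peak lists of fem-2(b245) worms were used, 1 for each of 2 ChIP replicates and 1 combined list. Crosslinking of ground worms took 20 minutes with EGS and 10 minutes more with formaldehyde added, per the labels' protocols. The submitters' processing notes name BWA as aligner and ce10 as build. Positions are on WormBase WS220, and the source is MACS (replicates) or MACS v2 (combined), per the file headers and source columns. The deposited score of each peak is the peak caller's, on a scale not given in the sources used here. How the inputs and replicates entered the calling is also not given, nor are filters and depth, and peak number and width can depend on them. Nothing says that the replicates were separate cultures.

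Widths, midpoints, overlaps (at least 1 bp) and runs were computed with Python 3.11.15, numpy 2.4.6, pandas 2.3.3 and scipy 1.17.1, drawn with matplotlib 3.10.9, and tested on simulated data. Wilson intervals are at 95%. Chromosome ends are the largest peak ends. Peaks named are the 8 highest-scored in both replicates, the single highest-scored of these in each part of the chromosome and the 8 widest. Also named are the 3 highest-scored in neither, the 3 over the most replicate 1 peaks and the end peaks. Stretches named are the 4 longest runs, the 3 densest 100 kb windows and the longest gaps. Ties went to the left. Members, borders and rules were chosen with earlier results of these data known. Alternatives were other arm borders, overlap rules, merging, the higher-scored 50%, DNA covered and single replicate lists. The only gene table at hand is on WBcel235, another build, so no gene or sequence was assigned to a peak. The unused mitochondrial peaks and inputs were not analysed here.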

Additional observations from a re-analysis of the deposited data

How the results depend on the processing

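Of 46 alternative values for 10 results, 18 stayed within the spread between replicates, the counting interval or 1.5 times, 26 moved beyond it and 2 reversed. The arm to centre log2 ratio (-0.34) reversed to 0.033 in the higher-scored 50% of peaks and to 0.168 in the replicate 1 list. It moved to -0.092 in replicate 2, -0.12 with 3 equal parts as arms and centre and -0.13 with borders 0.5 Mb further in, each time with its sign kept. The left to right ratio kept its sign in all 8 alternatives, moving most to -0.41 in the higher-scored 50% and -0.42 in replicate 1. The ratio of chromosome II to the others stayed above 0, at 0.035 in DNA covered, 0.098 and 0.101 in the replicate 2 and 1 lists, 0.141 in the higher-scored 50% and 0.145 with peaks within 500 bp merged. The median width became 318.5 bp with merging and 415 bp in the higher-scored 50%, and the median spacing 10.9 and 21.0 kb. Both settings leave fewer peaks by construction.

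The share in both replicates was 18.2% with midpoints within 500 bp, and 27.7 to 49.8% against 1 replicate alone. The share in neither was 52.5% with midpoints, 55.6% in the higher-scored 50% of each list, and 50.2 to 72.3% against 1 replicate alone. The shared part of replicate 1 was 57.7% with midpoints and 87.2% in the higher-scored 50%, and that of replicate 2 was 66.3% in the higher-scored 50%. The run of 21 peaks became 8 when peaks within 500 bp were merged. In the higher-scored 50% the peak nearest its place stood as a run of 1, since none of the 21 was kept. No paired analysis was possible because replicate numbers pair ChIP with input, and no input list was used here. Arm ratios were taken within each list. For the other values that moved, the cause was not tested. Since depth is unknown, REC-8 may also be present where a list has no peak.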
